A study of Mus musculus with 8 samples.

Results

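The BCL-2 family survival and death genes examined here are 10 mouse genes: the survival genes Bcl2, Bcl2l1 and Mcl1, the BH3-only death genes Bcl2l11, Bbc3, Pmaip1, Bid and Bad, and the effector genes Bax and Bak1. Each was looked up by its symbol among the probe sets that the array's annotation pairs with 1 gene symbol, and where a gene had several such probe sets the brightest was taken, by its mean over the 8 arrays. Of the 10 genes, 9 were measured in this way, among 22180 genes in the whole table. Bax had no probe set listed under its symbol alone and was not analysed here. All 9 measured genes lay above background on at least 1 array, as did 13328 of the 22180 genes. The 9 lay above it on all 8 arrays, a count not made for all genes.

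The BCL-2 family controls the mitochondrial route of apoptosis. The survival proteins BCL-2, BCL-XL (encoded by Bcl2l1) and MCL-1 hold the effectors BAX and BAK in check at the outer mitochondrial membrane, and the BH3-only proteins BIM (Bcl2l11), PUMA (Bbc3), NOXA (Pmaip1), BID and BAD relieve that block or act on the effectors directly. In T cells this balance sets how long a resting cell lives and whether an activated cell survives, and BIM is known for its part in the deletion of T cells.

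The samples were naive CD3+ T cells from C57BL/6J mice, taken from spleen and lymph nodes and purified by removing other cells with magnetic beads. Anti-CD3 and anti-CD28 antibodies were given either fixed to the plate (iAb), in solution with a secondary cross-linking antibody (sAb), or in solution together with latrunculin A (sAb+LatA), which sequesters monomeric actin and so stops filaments from growing. There was 1 array for each of 8 conditions: iAb, sAb+LatA and sAb at 3 h and at 24 h, LatA alone, and untreated naive T cells. Cells of the 24 h arrays were stimulated for 3 h, washed and then cultured further, and the submitters label the time of the LatA array as control where the methods give 3 h. The mice were female and 8 weeks old by the study's description, and the number behind an array is not given in the sources used here. With 1 array per condition, a difference between 2 arrays had no replicate error and no test, and fewer cells of a type cannot be told apart from less RNA per cell.

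Levels are log2 expression values as normalized by the authors, and background on an array was the 95th percentile of the level of 1428 receptor genes for odours, tastes and pheromones, little expressed in T cells by their known roles. It lay between 4.72 and 4.99, and 11481 to 12278 genes exceeded it per array. Between 2 arrays these receptor genes differed with an SD of 0.29 to 0.36 on the log2 scale. Of 11 T cell markers 10 were measured, all above background on every array. Of the activation and division markers, Il2ra, the IL-2 receptor alpha chain, was at 8.2 after LatA alone and 8.21 in naive T cells and at 10.22 to 11.43 on the 6 arrays with antibody, and the proliferation marker Mki67 was at 9.83 to 10.55 at 24 h and at 7.05 to 7.32 on the other arrays. Cd69, an early activation marker, was at 10.56 after LatA alone and 10.42 in naive T cells, at 11.23 to 12.12 at 3 h and at 9.71 to 9.82 at 24 h, below the unstimulated arrays.

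The levels of Bcl2, Bcl2l1, Bid, Bak1 and Mcl1 were higher on all 6 arrays with antibody than on both arrays without it (5 of 9 members, 17% of all genes), and that of Pmaip1 was lower on all 6 (1 of 9 members, 15.4% of all genes). Mcl1 was no longer separated when each array was centred on its median. In an additive model fitted with limma, sAb was compared with no antibody. Bcl2, Bcl2l1 and Bid rose at 3 h and remained above unstimulated cells at 24 h. Bak1 rose by 24 h, and Pmaip1 and Bcl2l11 fell by 24 h. Bad and Mcl1 did not pass the test in any contrast. Those that rose were 2 survival genes, a BH3-only gene and an effector gene, and those that fell were BH3-only genes.

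To set the levels beside the sequence at the gene starts, promoter windows of 300 bases (250 before the start and 50 after) were taken from RefSeq for the mouse build GRCm38.p6 and searched on both strands for the letters of 6 motifs: AP-1 (TGANTCA), CRE (TGACGTCA), kappaB (GGGNNTTCC), FOXO (TGTTTAC), E-box (CACGTG) and GC box (GGGCGG). Of 32851 promoters in that table, 7.81% held the AP-1 letters, 1.79% CRE, 5.82% kappaB, 3.65% FOXO, 7.15% E-box and 35.7% GC box. Printed here is 1 start of each of 4 members that rose or fell in the fit, picked after the matches were seen to show where the letters lie. Bcl2 (chr1:106714241-106714540, minus strand) held 7 GC boxes and none of the other motifs. Bcl2l1 has 3 listed starts, and only the second (chr2:152830668-152830967, minus strand) held a match, to kappaB. Bcl2l11 has 2, of which the first (chr2:128125788-128126087, plus strand) held 1 FOXO match, the letters bound by the FOXO factors known to act on this gene, and 3 GC boxes, while the second, not printed, held 3 GC boxes alone. Bid (chr6:120916775-120917074, minus strand) held 3 GC boxes. The sequences run 5′ to 3′ on the gene's strand, and capitals mark the motif matches, none of which overlap each other.
Bcl2: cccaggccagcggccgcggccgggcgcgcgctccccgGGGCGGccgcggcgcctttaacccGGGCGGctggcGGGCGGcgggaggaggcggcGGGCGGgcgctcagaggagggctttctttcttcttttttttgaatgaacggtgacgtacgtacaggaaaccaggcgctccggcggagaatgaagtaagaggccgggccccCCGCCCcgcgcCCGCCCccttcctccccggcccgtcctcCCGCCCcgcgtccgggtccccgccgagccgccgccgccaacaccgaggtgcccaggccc
Bcl2l1, second start: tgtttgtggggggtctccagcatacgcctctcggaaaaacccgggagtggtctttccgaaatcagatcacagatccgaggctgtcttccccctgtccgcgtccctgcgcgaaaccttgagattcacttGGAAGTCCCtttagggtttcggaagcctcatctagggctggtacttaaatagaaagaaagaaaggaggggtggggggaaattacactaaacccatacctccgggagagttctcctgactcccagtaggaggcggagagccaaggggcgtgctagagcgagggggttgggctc
Bcl2l11, first start: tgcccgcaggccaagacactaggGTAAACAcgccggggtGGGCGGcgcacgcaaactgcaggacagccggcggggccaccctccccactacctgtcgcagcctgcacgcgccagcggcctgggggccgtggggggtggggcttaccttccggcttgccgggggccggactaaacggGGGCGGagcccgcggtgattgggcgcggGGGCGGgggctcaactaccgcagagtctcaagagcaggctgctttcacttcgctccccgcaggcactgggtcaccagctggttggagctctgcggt
Bid: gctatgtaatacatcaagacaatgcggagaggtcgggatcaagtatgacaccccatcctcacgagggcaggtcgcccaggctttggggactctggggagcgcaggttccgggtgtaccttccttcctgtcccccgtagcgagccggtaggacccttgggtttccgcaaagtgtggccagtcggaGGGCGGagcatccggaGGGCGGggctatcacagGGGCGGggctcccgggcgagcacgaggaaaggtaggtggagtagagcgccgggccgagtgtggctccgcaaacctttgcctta

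The promoter of Pmaip1 was not used here. Over the 15 starts of the other 9 members, Bax included, no window held AP-1 or CRE letters. Bak1, with 1 start, held none of the 6 motifs, and Mcl1 held 1 GC box. Among the 3 starts of Bbc3, the first held a kappaB match with 5 GC boxes, the second a FOXO match with 4 and the third an E-box with 7, and the windows of these last starts overlap. A match is a run of letters and not a measured binding site.

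Bcl2, the founding survival gene of the family, had a log2 level of 9.87 after LatA alone and 9.88 in naive T cells, of 11.39, 11.60 and 11.19 after 3 h with iAb, sAb+LatA and sAb, and of 11.46, 11.39 and 11.43 at 24 h with iAb, sAb+LatA and sAb. The 6 arrays with antibody lay within 0.41 of each other and well above the other 2. Against naive T cells the level was 2.84-fold higher with iAb, 3.28-fold with sAb+LatA and 2.47-fold with sAb at 3 h, and 2.99-fold higher with iAb, 2.85-fold with sAb+LatA and 2.92-fold with sAb at 24 h. A dimmer probe set of Bcl2 lay at 4.32 after LatA alone and 4.39 in naive T cells, both below background, and at 4.88 to 5.18 on the 6 arrays with antibody, above it.

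Bcl2l1 encodes BCL-XL. Its log2 level was 5.68 after LatA alone and 5.77 in naive T cells, 6.95, 7.44 and 6.71 after 3 h with iAb, sAb+LatA and sAb, and 6.63, 6.83 and 6.77 at 24 h with iAb, sAb+LatA and sAb. The sAb+LatA array of 3 h stood highest, 3.18-fold above naive T cells, and the remaining 5 arrays with antibody were 1.81- to 2.27-fold above them.

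Mcl1, a survival gene whose protein turns over quickly, varied less. Its log2 level was 10.35 after LatA alone and 10.43 in naive T cells, 10.51, 10.70 and 10.78 after 3 h with iAb, sAb+LatA and sAb, and 10.53, 10.51 and 10.78 at 24 h with iAb, sAb+LatA and sAb. All 6 arrays with antibody exceeded the other 2, by 0.07 to 0.34 over naive T cells, and none by 1.5-fold. With each array centred on its median, the arrays with and without antibody overlapped. The second Mcl1 probe set differed in that the sAb+LatA array of 24 h, at 6.64, lay below the LatA array at 6.82 and naive T cells at 6.76.

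Bid encodes the BH3-only protein that caspase-8 cleaves, which couples death receptors to the mitochondrial route. On the log2 scale it lay at 5.51 after LatA alone and 5.28 in naive T cells, 6.88, 6.66 and 6.40 after 3 h with iAb, sAb+LatA and sAb, and 6.48, 6.69 and 6.65 at 24 h with iAb, sAb+LatA and sAb. No array with antibody overlapped those without. The iAb array of 3 h stood highest, 3.04-fold above naive T cells.

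Bak1, which encodes the effector BAK, had a log2 level of 6.89 after LatA alone and 7.06 in naive T cells, 7.65, 7.64 and 7.37 after 3 h with iAb, sAb+LatA and sAb, and 8.21, 8.18 and 7.75 at 24 h with iAb, sAb+LatA and sAb. Within each stimulus the 24 h array was the higher of the pair, and at both times the sAb array was the lowest of the 3. Its differences from naive T cells with iAb at 3 h (0.59) and sAb at 24 h (0.69) passed 1.5-fold as deposited but not with each array centred on its median (0.57 and 0.48).

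Bcl2l11 encodes BIM, which binds all of the survival proteins. Its log2 level was 9.56 after LatA alone and 9.48 in naive T cells, 8.95, 9.43 and 9.74 after 3 h with iAb, sAb+LatA and sAb, and 8.66, 8.50 and 8.71 at 24 h with iAb, sAb+LatA and sAb. Its first start held the FOXO match printed above. At 3 h the 3 stimuli spread on either side of naive T cells, with sAb the highest of all 8 arrays. At 24 h all 3 arrays lay below every other array, 1.76-, 1.97- and 1.70-fold below naive T cells for iAb, sAb+LatA and sAb.

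Pmaip1 encodes NOXA, which binds MCL-1 by preference. Its log2 level was 7.19 after LatA alone and 7.27 in naive T cells, 6.51, 6.94 and 6.66 after 3 h with iAb, sAb+LatA and sAb, and 6.08, 5.67 and 5.79 at 24 h with iAb, sAb+LatA and sAb. The 3 states of the cells did not overlap, with the 24 h arrays lowest, 2.29-, 3.04- and 2.80-fold below naive T cells for iAb, sAb+LatA and sAb.

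Bbc3 encodes PUMA, a p53 target that binds all of the survival proteins. Its log2 level was 5.72 after LatA alone and 5.75 in naive T cells, 5.39, 5.66 and 5.91 after 3 h with iAb, sAb+LatA and sAb, and 5.16, 5.15 and 5.45 at 24 h with iAb, sAb+LatA and sAb. The 3 h arrays lay on either side of unstimulated cells and overlapped the 24 h arrays, and at each time the sAb array was the highest of the 3.

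Bad encodes a BH3-only protein that survival kinases hold inactive by phosphorylation. Its log2 level kept between 5.28 and 5.6 on all 8 arrays, with the LatA array lowest and the sAb array of 24 h highest. The arrays with and without antibody overlapped. A further probe set that lists Bad beside a neighbouring gene was not used.

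**Figure D1:**
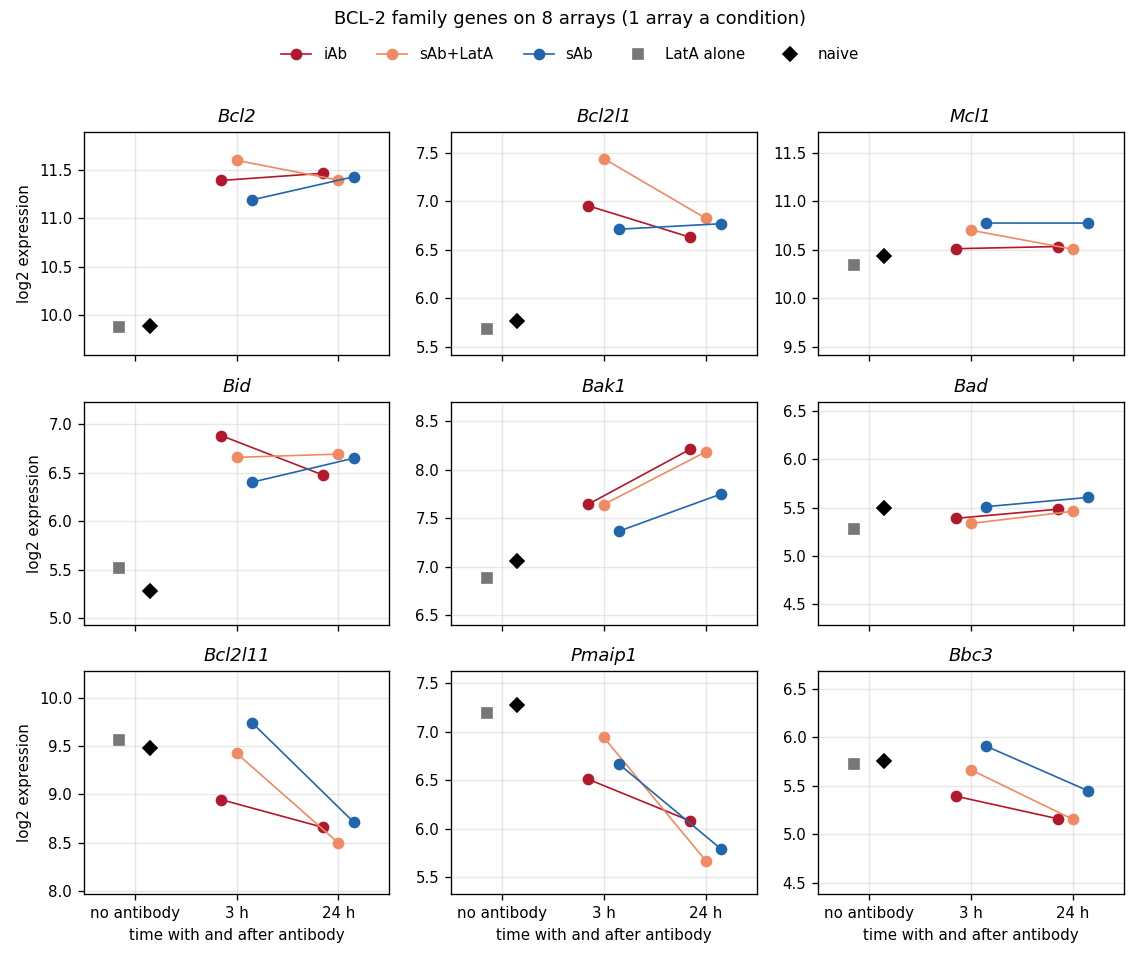
Log2 expression (vertical axes, all spanning the same range) of the 9 measured genes without antibody, at 3 h and at 24 h (horizontal axis), 1 point per array; red, orange and blue points joined by lines are iAb, sAb+LatA and sAb, the grey square is LatA alone and the black diamond is naive T cells. Bcl2, Bcl2l1 and Bid stood higher at both times with antibody, Bak1 climbed to 7.75 to 8.21 at 24 h, and Bcl2l11 and Pmaip1 were lowest at 24 h.

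Counted over the list, the members with a level at least 1.5-fold from naive T cells at 3 h were 5 of 9 with iAb, 3 with sAb+LatA and 4 with sAb. Over all genes compared (11961 to 12768 for any pair of arrays) the share past 1.5-fold was 27.6% for iAb, 19.2% for sAb+LatA and 9.78% for sAb. Bcl2, Bcl2l1 and Bid were higher with all 3 stimuli, and Pmaip1 was lower with iAb and sAb. Bak1 was higher with iAb, just past the threshold at 1.502-fold, and fell just short of it with sAb+LatA at 1.498-fold. At 24 h the count was 7 of 9 with iAb, 7 with sAb+LatA and 6 with sAb, where 34.1%, 31.5% and 26.1% of all genes passed. With each stimulus of 24 h, Bcl2, Bcl2l1, Bak1 and Bid were higher and Bcl2l11 and Pmaip1 lower, and Bbc3 was lower with iAb and sAb+LatA, just past the threshold at 1.51- and 1.52-fold. The median difference of the 9 members from naive T cells was 0.08, 0.27 and 0.31 on the log2 scale at 3 h with iAb, sAb+LatA and sAb, against -0.03, -0.04 and 0.03 for all genes, and 0.10, 0.07 and 0.34 at 24 h, against 0.01, 0.03 and 0.03 for all genes. With each array centred on its median, the members' medians at 24 h were -0.14, -0.14 and 0.13. LatA alone moved 0 of 9 members by 1.5-fold from naive T cells, and 2.06% of all genes.

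**Figure D2:**
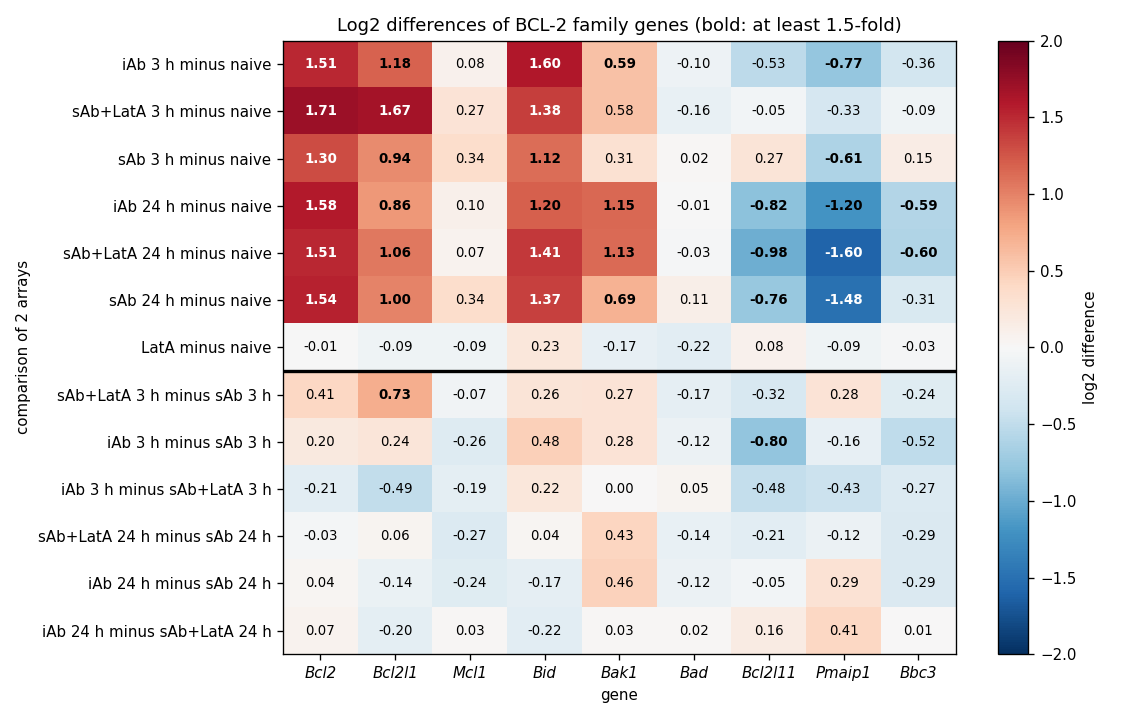
Log2 difference between 2 arrays (colour and printed value, bold where at least 1.5-fold) for each gene (columns) and comparison (rows), with the comparisons to naive T cells above the line and those between stimuli below it. Between 3 and 7 members were 1.5-fold from naive T cells on the arrays with antibody, where 9.78% to 34.1% of all genes were. Between stimuli 1 member at most differed so, where 2.01% to 19% of all genes did.

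The additive model described each of the 8 arrays by its state (no antibody, 3 h or 24 h), LatA and iAb. It had 3 residual degrees of freedom. It took each effect as equal wherever it occurred, so that its error is the misfit of that assumption and not the spread between mice. LatA and iAb had terms of their own, so the differences from no antibody are those of sAb without LatA. The 24 h state is 3 h with antibody, then a wash and further culture. For sAb at 3 h against no antibody, 3 of 9 members rose and 0 fell, where 6.14% of the 13328 genes rose and 3.76% fell. Bcl2 rose by 1.5 ± 0.15 on the log2 scale (SE, adjusted p = 0.00251), Bcl2l1 by 1.36 ± 0.19 (adjusted p = 0.00728) and Bid by 1.23 ± 0.17 (adjusted p = 0.00651). Bak1 differed by 0.51 ± 0.16 (adjusted p = 0.0902), Pmaip1 by -0.54 ± 0.19 (adjusted p = 0.123) and Mcl1 by 0.33 ± 0.13 (adjusted p = 0.16), none past 0.05. Bcl2l11, Bbc3 and Bad differed by -0.05, 0.00 and 0.04. The calls of 3 h depended on single arrays. Without the LatA array none of the 3 passed (Bcl2 at an adjusted p of 0.103, Bcl2l1 at 0.18, Bid at 0.152) and 1 gene was called in all. Without either the naive array or the sAb+LatA array of 3 h Bcl2l1 (0.0507 and 0.0614) and Bid (0.0721 and 0.0604) were lost while Bcl2 held.

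For sAb at 24 h against no antibody, 4 of 9 members rose and 2 fell, where 20.4% of all genes rose and 12.3% fell. Bcl2 rose by 1.54 ± 0.15 (adjusted p = 0.000277), Bid by 1.18 ± 0.17 (adjusted p = 0.00139), Bcl2l1 by 1.06 ± 0.19 (adjusted p = 0.00404) and Bak1 by 1.01 ± 0.16 (adjusted p = 0.00245). Pmaip1 fell by 1.39 ± 0.19 (adjusted p = 0.00121) and Bcl2l11 by 0.80 ± 0.19 (adjusted p = 0.0154). Bbc3 differed by -0.40 ± 0.14 (adjusted p = 0.0627), Mcl1 by 0.27 ± 0.13 (adjusted p = 0.151) and Bad by 0.15 ± 0.12 (adjusted p = 0.417). The call of Bcl2l11 was lost without the naive, LatA, sAb 24 h or sAb+LatA 24 h array (adjusted p of 0.052, 0.189, 0.071 and 0.103), that of Bcl2l1 without the LatA array (0.083), and Bbc3 was called without either iAb array (0.0383).

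From 3 h to 24 h, 1 of 9 members rose and 3 fell, where 15.3% of all genes rose and 8.86% fell. Bak1 rose by 0.50 ± 0.14 (adjusted p = 0.0339), while Pmaip1 fell by 0.86 ± 0.16 (adjusted p = 0.00689), Bcl2l11 by 0.75 ± 0.17 (adjusted p = 0.0138) and Bbc3 by 0.40 ± 0.12 (adjusted p = 0.0432). Bcl2, Bid, Mcl1 and Bad differed by 0.04, -0.04, -0.06 and 0.10, and Bcl2l1 by -0.29 ± 0.16 (adjusted p = 0.24). The call of Bbc3 did not hold in 6 of the 8 fits that leave out an array (adjusted p of up to 0.198) and that of Bak1 was lost in 5, when any 3 h array, the iAb 24 h array or the sAb+LatA 24 h array was left out (up to 0.168). Bcl2l11 was lost without the sAb+LatA 3 h, sAb 24 h or sAb+LatA 24 h array (0.0762, 0.053 and 0.0865), and Bcl2l1 was called as lower without the sAb 3 h array (0.0458). For this contrast, leaving out naive or LatA gives the same fit, as does leaving out either iAb array. The tallies of 6 and 5 therefore count a fit more than once. Array by array, 0 members differed by 1.5-fold between the times with iAb, 3 with sAb+LatA (Bcl2l1, Bcl2l11 and Pmaip1, all lower at 24 h) and 2 with sAb (Bcl2l11 and Pmaip1, both lower), where 25.6%, 20.6% and 15.2% of all genes did.

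**Figure D3:**
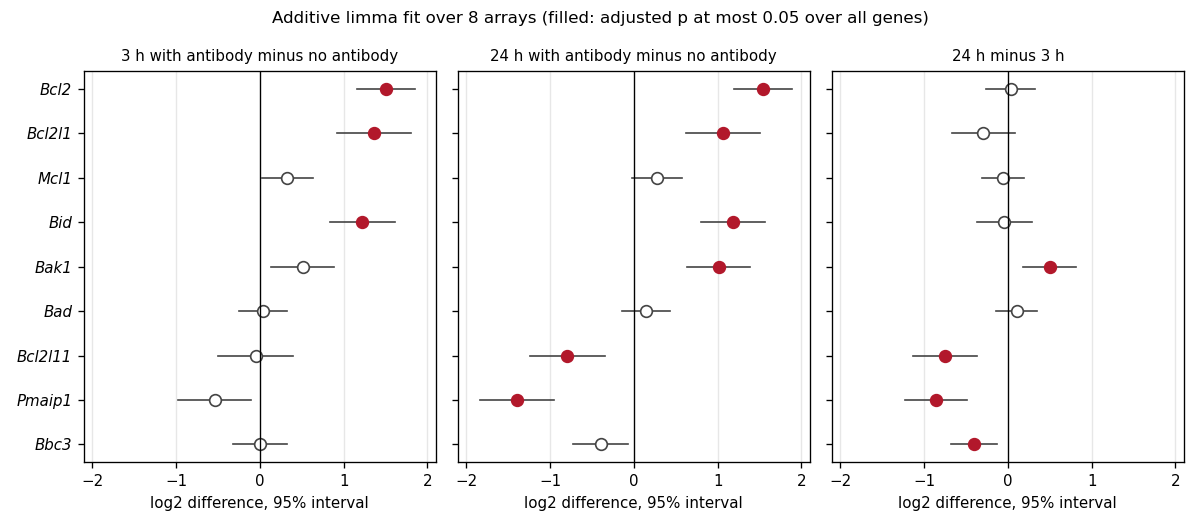
Log2 difference in the additive fit with its 95% interval (horizontal axes) for each gene (rows), for sAb at 3 h and 24 h against no antibody and for 24 h against 3 h. Filled points passed an adjusted p of 0.05 over 13328 genes. Bcl2, Bcl2l1 and Bid passed at both times, Bak1, Bcl2l11 and Pmaip1 at 24 h, and Bak1, Bcl2l11, Pmaip1 and Bbc3 between the times.

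At 24 h Pmaip1, Bcl2l11 and the signal for myeloid and dendritic cell markers were all lower than without antibody. The 10 myeloid and dendritic cell markers, all measured, summed to a linear level of 929 to 1051 on the arrays without antibody. The sum was 602 to 654 at 3 h and 428 to 452 at 24 h. At 3 h, when the sum was already lower, Bcl2l11 lay on either side of naive T cells (9.48). It was at 8.95, 9.43 and 9.74 with iAb, sAb+LatA and sAb. Of the 9 markers above background on at least 1 array, 6 fell with sAb at 24 h in the fit, where 12.3% of all genes fell. Adgre1, 1 of these 6, was at 5.92 in naive T cells and at 3.48 to 4.28 at 24 h, below background. It thus entered the fit, and the count of 6, only through the arrays where it was high. Csf1r, the receptor of macrophage colony-stimulating factor, was at 7.78 after LatA alone and 7.66 in naive T cells. At 24 h it was at 4.44 to 5.23, below background with sAb (4.54) and iAb (4.44). Itgam lay below background on all 8 arrays. Of 8 B cell markers 6 were measured, and they summed to 341 to 364 without antibody, 283 to 309 at 3 h and 258 to 326 at 24 h. Within that list H2-Aa, an MHC class II gene, fell by 1.23 at 24 h (adjusted p = 0.000929). Ms4a1, which encodes CD20, rose by 0.80 (adjusted p = 0.0112), from levels below background (4.61 after LatA alone, 4.82 in naive T cells). Among 6 NK cell markers, 5 were measured, which summed to 206 to 230 without antibody, 549 to 698 at 3 h and 674 to 877 at 24 h. Eomes, which T cells also express, was above background throughout while Klrb1c, Klre1 and Klri2 never were. T cell markers summed to 14342 to 16249 without antibody and to 16610 to 19356 with it. The part of other cells in the levels of the BCL-2 family genes was not tested.

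Between stimuli, at most 1 of 9 members passed 1.5-fold in any comparison. With so few members these counts cannot be told apart from the shares of all genes given beside them. For iAb against sAb at 3 h, 1 of 9 passed 1.5-fold (19% of all genes): Bcl2l11 was 1.74-fold lower, at 8.95 with iAb and 9.74 with sAb. For sAb+LatA against sAb at 3 h, 1 of 9 passed (5.89% of all genes): Bcl2l1 was 1.66-fold higher, at 7.44 with sAb+LatA and 6.71 with sAb. No member passed for iAb against sAb+LatA at 3 h (8.77% of all genes), nor at 24 h for iAb against sAb (5.8%), sAb+LatA against sAb (3.78%) or iAb against sAb+LatA (2.01%). Among the smaller differences, Bak1 was above sAb by 0.28 with iAb and 0.27 with sAb+LatA at 3 h, and by 0.46 and 0.43 at 24 h. Bbc3 was below sAb by 0.52 with iAb and 0.24 with sAb+LatA at 3 h, and by 0.29 with either at 24 h. These pairs share the sAb array of their time, so the iAb and sAb+LatA values are not independent, and no replicate shows the spread of such differences.

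In the additive model 0 of 9 members passed for iAb against sAb (0% of all genes, smallest adjusted p = 0.204, 1251 genes above and 1020 below before adjustment, at p of 0.05) and 0 of 9 for LatA (0% of all genes, smallest adjusted p = 0.822, 368 above and 353 below before adjustment). The nearest to the threshold was Bbc3 with iAb, at -0.36 (95% interval -0.68 to -0.04, adjusted p = 0.255), followed by Bcl2l11 at -0.37 (-0.81 to 0.08, adjusted p = 0.383). For LatA, Bcl2l1 differed by 0.23 (-0.14 to 0.61, adjusted p = 0.838) and Bbc3 by -0.19 (-0.46 to 0.09, adjusted p = 0.829). The intervals of Bbc3, Bcl2l11 and Bak1 (-0.09 to 0.66) with iAb and of Bcl2l1 with LatA thus include differences past 1.5-fold.

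By Pearson's r over the 8 arrays, the genes nearest to the profile of each of the 3 members with the widest range were sought among 3652 genes with a range of at least 1 on the log2 scale. Nearest to Bcl2 were Gbp5 (r = 0.999) and Gbp4 (r = 0.993), guanylate-binding proteins induced by interferon, and Arhgef2 (r = 0.995), a RhoA exchange factor tied to microtubules. Gbp5 had a log2 level of 5.92 after LatA alone and 5.88 in naive T cells and of 9.15 to 10.30 on the arrays with antibody, a wider range than that of Bcl2. Nearest to Bcl2l1 were Map3k8 (r = 0.996), a kinase of the NF-kappaB and ERK routes, Usp18 (r = 0.972), which removes ISG15, and Ikzf3 (r = 0.972), the transcription factor Aiolos. Map3k8, like Bcl2l1, was highest on the sAb+LatA array of 3 h, at 8.09. Nearest to Pmaip1 were Jchain (r = 0.988), the joining chain of secreted immunoglobulins, Maco1 (r = 0.988) and Epb41l3 (r = 0.98), a membrane skeleton protein. Jchain, a gene of antibody-secreting cells, was at 6.31 after LatA alone and 6.45 in naive T cells, 5.02 to 5.48 at 3 h and 3.56 to 4.07 at 24 h, the last below background. With 8 arrays in 3 states, high r values are easily reached, and they are given as a description.

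**Figure D4:**
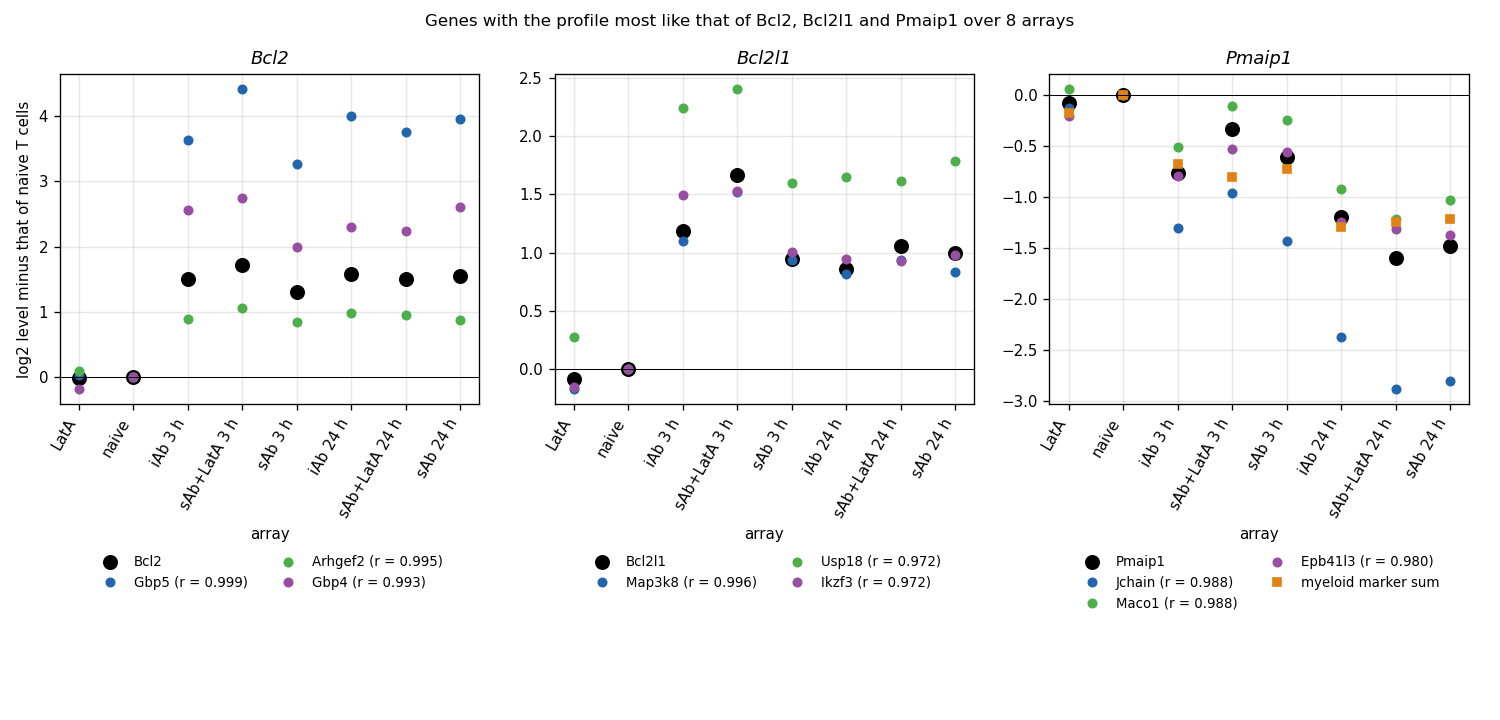
Log2 level minus that of naive T cells (vertical axes) on each of the 8 arrays (horizontal axes) for Bcl2, Bcl2l1 and Pmaip1 (black) and the 3 genes with the highest Pearson r to each (colours); the orange squares are the log2 sum of the myeloid and dendritic cell markers. Bcl2l1 and Map3k8 share their highest point at 3 h with sAb+LatA, and Pmaip1, Jchain and the myeloid sum are lowest at 24 h.

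The further lists are counted in the same fit, again for sAb against no antibody. There 6.14% of all genes rose and 3.76% fell at 3 h, and 20.4% rose and 12.3% fell at 24 h. Of 15 further BCL-2 family genes, 11 were measured and 7 entered the fit. In it 0 rose and 0 fell at 3 h, and 0 rose and 1 fell at 24 h: Bmf, a BH3-only gene, by 0.43 (adjusted p = 0.0437), from levels near background (5.10 after LatA alone and 5.02 in naive T cells, 4.55 to 4.73 at 24 h). Bcl2a1a, a survival gene of the A1 group, had the widest range, at 5.74 after LatA alone and 5.67 in naive T cells, 7.87, 6.90 and 6.25 after 3 h with iAb, sAb+LatA and sAb, and 5.80, 5.21 and 5.83 at 24 h with iAb, sAb+LatA and sAb. Its difference at 3 h in the fit, 1.04, had an adjusted p of 0.0795, and near-identical A1 copies could share its probes, so this level is uncertain. Bnip3 and Bok did not pass at either time, with differences of -0.38 and -0.15 at 3 h and -0.04 and -0.15 at 24 h.

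Among the 10 measured genes of death receptors and their adaptors, 3 rose and 0 fell at 3 h, and 3 rose and 2 fell at 24 h. Fas, the receptor, rose by 2.03 at 3 h (adjusted p = 0.00233) and 1.25 at 24 h (adjusted p = 0.00233). Its ligand Fasl did not pass at 3 h (0.05) and fell by 1.82 at 24 h (adjusted p = 0.000876). Tnfsf10, the TRAIL ligand, rose by 1.24 and 1.81 (adjusted p = 0.0097 and 0.000445 at 3 h and 24 h), and Cflar, the caspase-8 inhibitor FLIP, rose by 0.86 at 3 h (adjusted p = 0.0417) and differed by -0.05 at 24 h.

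Of the apoptosome, caspases and their inhibitors (18 listed, 16 measured), 0 rose and 0 fell at 3 h, and 6 rose and 2 fell at 24 h. Birc5, survivin, which also serves cell division, rose most, by 2.95 at 24 h (adjusted p = 0.000119). It was above background on the 24 h arrays only, at 6.61 to 7.32, and at 3.81 to 4.23 on the others. It thus entered the fit, and the count of 6, only through the arrays where it was high. Aifm1, a mitochondrial protein that takes part in respiration, rose by 1.28 (adjusted p = 0.000511). Endog, a mitochondrial nuclease, rose by 0.83 (adjusted p = 0.0027) and Casp6 by 0.63 (adjusted p = 0.0494).

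Kinases, ligases and partners that act on the family numbered 24, of which 22 were measured, with 0 up and 2 down at 3 h and 7 up and 3 down at 24 h. Pim2, a survival kinase that phosphorylates BAD, rose by 2.18 (adjusted p = 0.00037), Akt1, another BAD kinase, by 1.07 (adjusted p = 0.000866) and Vdac1, a channel of the outer mitochondrial membrane, by 1.38 (adjusted p = 0.0004), all at 24 h. Bag3, a co-chaperone that binds BCL-2, fell at both times, by 0.92 (adjusted p = 0.00823) and 1.11 (adjusted p = 0.000762).

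Of 15 measured transcription factors known to act on the family, 2 rose and 3 fell at 3 h, and 2 rose and 7 fell at 24 h. Myc rose by 2.61 at 3 h and 1.82 at 24 h (adjusted p = 0.00232 and 0.00125), and E2f1 rose by 1.77 at 24 h (adjusted p = 0.000163). Egr1, an early response gene, rose by 1.59 at 3 h (adjusted p = 0.0225) and differed by -0.30 at 24 h. Stat5b, which carries IL-2 and IL-7 signals, fell by 0.82 and 1.76 (adjusted p = 0.0327 and 0.000423). Foxo1, a factor that binds the FOXO letters shown for Bcl2l11, fell by 0.59 and 0.72 (adjusted p = 0.0278 and 0.00422), while Foxo3, another such factor, differed by -0.22 and -0.24 and did not pass (adjusted p = 0.461 and 0.301). Both are named here after their values were seen, and no link of either to the level of Bcl2l11 was tested. The second start of Bbc3 held the FOXO letters too. Trp53 and Nfkb1 were not analysed here.

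The 12 p53 target genes in the fit, none of them a member, gave 1 higher and 1 lower at 3 h and 3 higher and 2 lower at 24 h. Pidd1, of a caspase-2 complex, rose by 1.13 at 24 h (adjusted p = 0.00655), and Sesn2, a stress sensor, fell by 0.92 and 1.16 (adjusted p = 0.022 and 0.00252). Sesn1 and Aen did not pass at either time, though on the iAb array of 3 h Sesn1 was at 6.78 against 8.56 in naive T cells and Aen at 7.90 against 6.64. For iAb against naive T cells at 24 h the median log2 difference was -0.10 for the further family genes, 0.12 for death receptors, 0.26 for the apoptosome and caspases, -0.01 for kinases and partners, -0.27 for the transcription factors and 0.02 for p53 targets, against 0.10 for the 9 members and 0.01 for all genes.

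**Figure D5:**
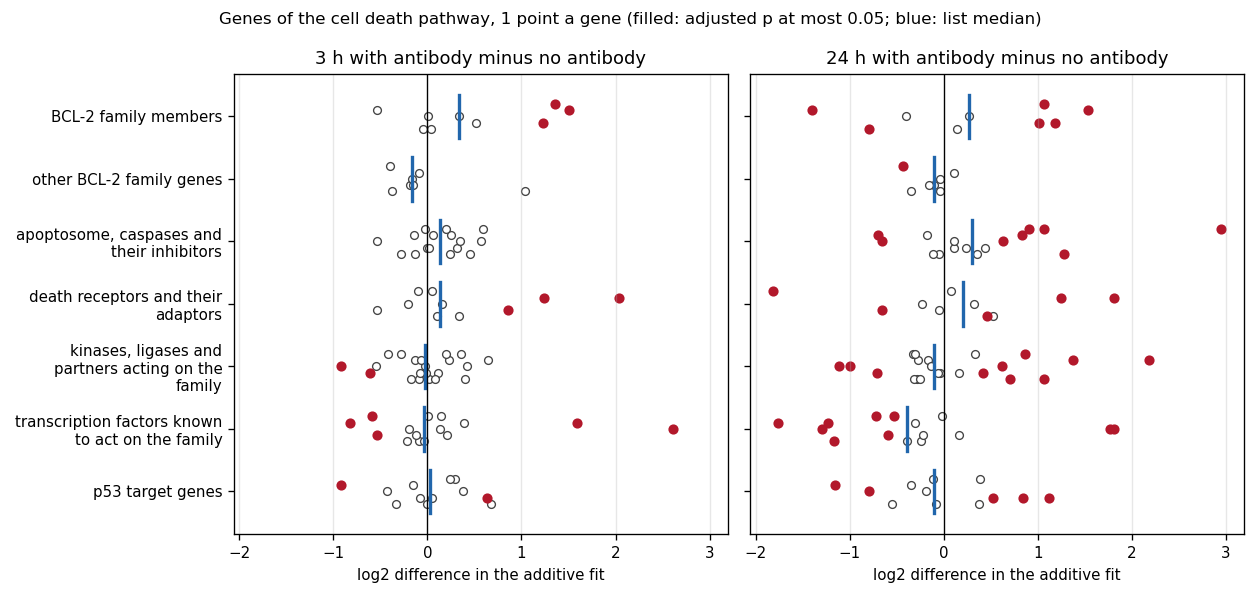
Log2 difference in the additive fit (horizontal axes) for sAb at 3 h and 24 h against no antibody, 1 point per gene for the 9 members and the 6 further lists (rows). Filled points passed an adjusted p of 0.05 over all genes and blue bars are list medians. The members hold 3 filled points at 3 h and 6 at 24 h.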

How the data were processed

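Mouse Gene ST arrays of 8 conditions were scanned and normalized together by the authors with the robust multi-average method. The deposited values are on a log2 scale, with 1 value for each probe set on each array. That scale is read from the values, since the sources used here do not state it, and the genome build of the array is not given in the sources used here. Signal was judged against background, and 1 array per condition limits the precision. No array was normalized again for the values of the report.

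Of 41345 probe sets, 23521 carried 1 gene symbol, 1820 several and 16004 were not listed, which gave 22180 genes, 1082 of them with several probe sets. No 2 columns were identical (0 pairs). Differences between 2 arrays (16 comparisons) were called at 1.5-fold, with no test, for genes that exceeded background on either array. The additive model was fitted with limma 3.58.1 in R 4.3.3, with 5 coefficients and 3 residual degrees of freedom, to 13328 genes above background on at least 1 array, and adjusted p-values are Benjamini-Hochberg over all of them at 0.05. It has no replicate of a condition, so its p-values set each effect against the departures from additivity and not against the spread between mice. Tables were handled with Python 3.11.15 and pandas 2.3.3.

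All 10 members are named. Of each further list, the 4 genes above background furthest from naive T cells on any array with antibody are named, and for 3 members the 3 genes with the highest r. Members and lists were chosen with earlier results of these data known. Alternatives were 2 other scalings, the mean of all probe sets, no background filter or the 99th percentile, a 2-fold threshold, an intensity trend, a fit of the 6 arrays with antibody, and leaving out each array.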

Additional observations from a re-analysis of the deposited data

Results flagged for a closer look

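Pmaip1 differed between iAb and sAb+LatA in opposite directions at the 2 times: by -0.433 on the log2 scale at 3 h (6.51 with iAb, 6.94 with sAb+LatA) and by 0.408 at 24 h (6.08 with iAb, 5.67 with sAb+LatA). Each value rests on 1 array per condition, neither reached 1.5-fold, and the difference between the times was not tested.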

How the results depend on the processing

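No paired analysis was possible because each condition has 1 array and so no replicate number to pair, though a fit of the 6 arrays with antibody compared the times within each stimulus. No result turned its direction past a threshold under any alternative. At 2-fold, the members called against naive T cells at 3 h were 3 with iAb and 2 with sAb. At 24 h they were 4 with iAb and 3 with sAb. With sAb+LatA, Bcl2, Bcl2l1 and Bid passed 2-fold at 3 h, and these genes with Bak1 and Pmaip1 at 24 h. For sAb+LatA against sAb and iAb against sAb at 3 h the count was 0. Between the times it was 1 with sAb and 1 with sAb+LatA. The share of all genes past 2-fold was not computed, so these counts have no share to be set against. Centring arrays on their median, which takes between -0.12 and 0.13 from an array, called 2 members between the times with iAb (0 before): Pmaip1 and Bid, both lower. It also called Bbc3 at 24 h (-0.61, adjusted p = 0.00934) and lost Bak1 between the times (0.35, adjusted p = 0.114), turned Mcl1 with iAb and with sAb+LatA at 24 h to -0.14, left 4 members higher on all 6 arrays with antibody (5 before, the loss being Mcl1), took Bak1 below 1.5-fold with iAb at 3 h and sAb at 24 h, and called Bbc3 between the times with sAb+LatA (-0.65). Renewed quantile normalization left 2 members between the times (4 before), without Bak1 and Bbc3 (adjusted p = 0.0555 and 0.0755), and Bbc3 was also lost without a background filter (0.0695) and on the 6 arrays with antibody (0.0624). At the 99th percentile Bad and Bbc3 were not tested. The mean of both Bcl2 probe sets gave differences of 0.91 to 1.25 from naive T cells. Shares of all genes under median centring and renewed quantile normalization are not given here. Member counts under these settings thus have no share to be set against.

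Leaving out 1 array at a time, the genes called numbered 1 to 1588 at 3 h (1320 with all arrays; 1 without LatA, 116 without naive, 95 without sAb+LatA 3 h, 744 without sAb+LatA 24 h) with 0 to 3 members, and 1550 to 4761 at 24 h (4364 with all; 1550 without LatA, 2645 without naive, 2479 without sAb+LatA 24 h) with 4 to 7 members. Between the times they were 1642 to 2951 (3225 with all; lowest without sAb+LatA 3 h, 1693 without sAb+LatA 24 h) with 1 to 3 members. For iAb against sAb they were 0 to 943, all 943 without the iAb 24 h array, with 0 members. These fits have 2 residual degrees of freedom, and the cause of the losses was not tested.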
